A study of Mus musculus with 2 samples.

Results

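The D-type cyclins Ccnd1, Ccnd2 and Ccnd3 and their kinases Cdk4 and Cdk6 were followed in PDGFB-driven mouse gliomas by single-cell RNA sequencing. These 5 genes, of 18366 listed over 2 libraries, were taken by name as a family, with no threshold on their values, and all 5 were listed in both libraries. Their transcripts were counted in 6784 kept cells and compared between cycling and non-cycling cells and along commitment to the oligodendrocyte lineage.

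The tumours arose in C57BL/6 mice after PDGFB was transferred in utero into the ventricles of the embryonic telencephalon, and they were taken about 40 days after birth. Dissociated cells were sorted for GFP, and 2 samples were joined for each library before partitioning, so each library is a pool of tumours (pool 1 and pool 2). Every cell comes from a tumour of this 1 kind, with no normal or untreated control, so all comparisons are between cell states within a pool. The titles of both pools carry a number in common whose meaning is not given, so the pools may share an animal. The pool was a term of the fit, so p-values measure how state differences vary between these 2 pools only. The fit also draws on other genes for the spread of each gene, so small p-values do not rest on these pools alone.

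D-type cyclins bind CDK4 or CDK6, and the active kinases phosphorylate the retinoblastoma protein (RB), which releases E2F factors that switch on genes for DNA synthesis. Mitogens such as PDGF raise D-type cyclin transcription through ERK signalling, so these cyclins report on growth signals rather than on the position in the cycle. Oligodendrocyte precursors divide in response to PDGF and leave the cycle as they commit to myelination, passing through a state with high Gpr17, a G protein-coupled receptor of that transition.

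On the GRCm38 build with the GENCODE vM21 annotation, Ccnd1 spans chr7:144929931-144939925 (minus strand), Ccnd2 chr6:127125162-127152193 (minus strand), Ccnd3 chr17:47505051-47599691 (plus strand), Cdk4 chr10:127063534-127067920 (plus strand) and Cdk6 chr5:3341485-3531008 (plus strand). Cdk4 and Ccnd3 went different ways in the committed cells described below, though the Cdk4 call was kept in only 8 of 17 alternative settings. The promoter of Cdk4 is shown with both annotated promoters of Ccnd3, the only D-type cyclin with an entry among the RefSeq promoters used here. Each is the 250 bases before a RefSeq start site (GRCm38.p6, plus strand), in lower case with the E-box CACGTG, a motif bound by MYC family factors among others, in capitals.
Cdk4 (chr10:127063285-127063534): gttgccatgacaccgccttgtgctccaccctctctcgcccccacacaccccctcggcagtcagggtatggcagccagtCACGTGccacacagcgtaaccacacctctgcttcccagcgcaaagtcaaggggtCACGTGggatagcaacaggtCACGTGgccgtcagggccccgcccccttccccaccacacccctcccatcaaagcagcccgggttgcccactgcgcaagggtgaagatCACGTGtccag
Ccnd3, first start (chr17:47504801-47505050): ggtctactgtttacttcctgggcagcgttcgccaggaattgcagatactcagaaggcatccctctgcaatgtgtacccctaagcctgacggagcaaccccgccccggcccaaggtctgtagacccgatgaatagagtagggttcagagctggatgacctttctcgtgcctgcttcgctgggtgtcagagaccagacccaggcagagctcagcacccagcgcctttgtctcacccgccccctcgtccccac
Ccnd3, second start (chr17:47593217-47593466): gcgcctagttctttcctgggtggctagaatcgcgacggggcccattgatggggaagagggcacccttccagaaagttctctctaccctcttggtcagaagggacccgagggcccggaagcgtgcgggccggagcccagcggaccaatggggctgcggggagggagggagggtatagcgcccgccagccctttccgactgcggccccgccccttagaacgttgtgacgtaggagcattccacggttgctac
The Cdk4 promoter held 4 copies of CACGTG, whose first bases lie 172, 118, 98 and 11 bases before the start. Of 32851 promoters of this length, 6.02% held at least 1 copy and 0.0213%, or 7 promoters, held at least 4. Neither Ccnd3 promoter held a copy, and the Cdk6 promoter held 1, at 220 bases before the start. CACGTG reads the same on both strands. The E2F-type motifs TTTGGCGC and TTTCCCGC, searched on both strands, were in none of these promoters and in 0.417% and 0.895% of all promoters. The GC box GGGCGG, also on both strands, had 1 match in the Cdk4 promoter, 2 and 1 in those of Ccnd3 and none in that of Cdk6, and was in 32.7% of all promoters. These matches describe letters in a window and show no binding.

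The libraries held 3843 barcodes with 33894255 UMIs (pool 1) and 3650 barcodes with 40909383 UMIs (pool 2). A floor of 500 genes per cell and a ceiling of 15% mitochondrial UMIs left 3506 and 3278 cells with a median of 7440 and 11272 UMIs. The pools shared 4 barcodes. Each count was divided at random into a training part, from which clusters and states were called, and a held-out part, on which differences were tested. The member genes, the pathway genes and the genes that call the cycle were kept out of the clustering. All 8 oligodendrocyte precursor markers were detected in every state, and the sum of the 8 microglial markers reached at most 7.59 UMIs per 1000000 UMIs (CPM) in any state.

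Cells were called from 2000 training UMIs each. S-phase cells had UMIs of at least 2 of 10 S-phase genes, G2/M cells of at least 2 of 10 G2/M genes, and non-cycling cells of none of the 20. The reference was the non-cycling precursor without a Gpr17 UMI, here called Gpr17-low (846 cells in pool 1 and 1211 in pool 2). Against it stood S-phase cells (111 and 79), G2/M cells (254 and 189), cells with both gene sets (158 and 115) and non-cycling precursors with at least 2 Gpr17 UMIs, called Gpr17-high (150 and 117). The cycling states were taken at any number of Gpr17 UMIs. Non-cycling precursors with 1 Gpr17 UMI (284 and 249) fell in no state. Committed precursor-like cells (43 and 26) were the non-cycling cells of 1 cluster in which 9 of 10 markers of committed precursors, among them Enpp6, Bmp4 and Bcas1, were at least 2-fold above the other cells. The cluster also met the naming rule for mature oligodendrocytes and took the name of the list with the higher mean fold. In its non-cycling cells the myelin gene Mbp was at 3296 and 3486 CPM, against 37.7 and 40.4 CPM in Gpr17-low cells, Mag at 345 and 446 CPM against 0.575 and 0.612 CPM, and Cldn11 at 822 and 1058 CPM against 62.8 and 30.1 CPM. In the committed state the summed precursor markers were 4166 and 4295 CPM, against 10166 and 9658 CPM in Gpr17-low cells. Ermn, another marker of mature oligodendrocytes, was at 0 in the committed state of both pools. All other kept cells (1944 and 1541) fell in no state, among them 1148 and 833 with too few UMIs.

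Ccnd1 was among the most abundant transcripts of these tumours. Over all kept cells it stood at 2450 CPM in pool 1 and 2454 CPM in pool 2, rank 20 and 17 among the genes of each pool. Ccnd2 followed at 805 and 1001 CPM, Cdk4 at 283 and 254 CPM and Ccnd3 at 117 and 119 CPM. Cdk6 was scarce, at 4.58 and 6.87 CPM from 153 and 278 UMIs. These are counts of captured molecules at the 3′ end, with no length term, so levels can be set side by side as molecules but not corrected for capture. Of all D-type cyclin UMIs, Ccnd1 held 72.6% in pool 1 and 68.7% in pool 2 (exact Clopper-Pearson 95% intervals 72.4 to 72.9% and 68.4 to 68.9%). Ccnd2 held 23.9% and 28%, and Ccnd3 3.48% and 3.32%. The share of Ccnd2 was higher in pool 2, beyond counting error.

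Several members overlap a gene on the other strand, and whether the counting used strand is not given in the sources used here. LTO1, which overlaps Ccnd1 by 1771 bases, stood at 114 and 162 CPM, and Tspan31, which overlaps Cdk4 by 641 bases, at 91.5 and 90.6 CPM. Bysl overlaps Ccnd3 by 361 bases and stood at 27.3 and 24.1 CPM. The antisense genes over Ccnd2 were at most at 1.23 CPM. A share of the Cdk4 count could therefore not be told from Tspan31 if strand was ignored.

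**Figure D1:**
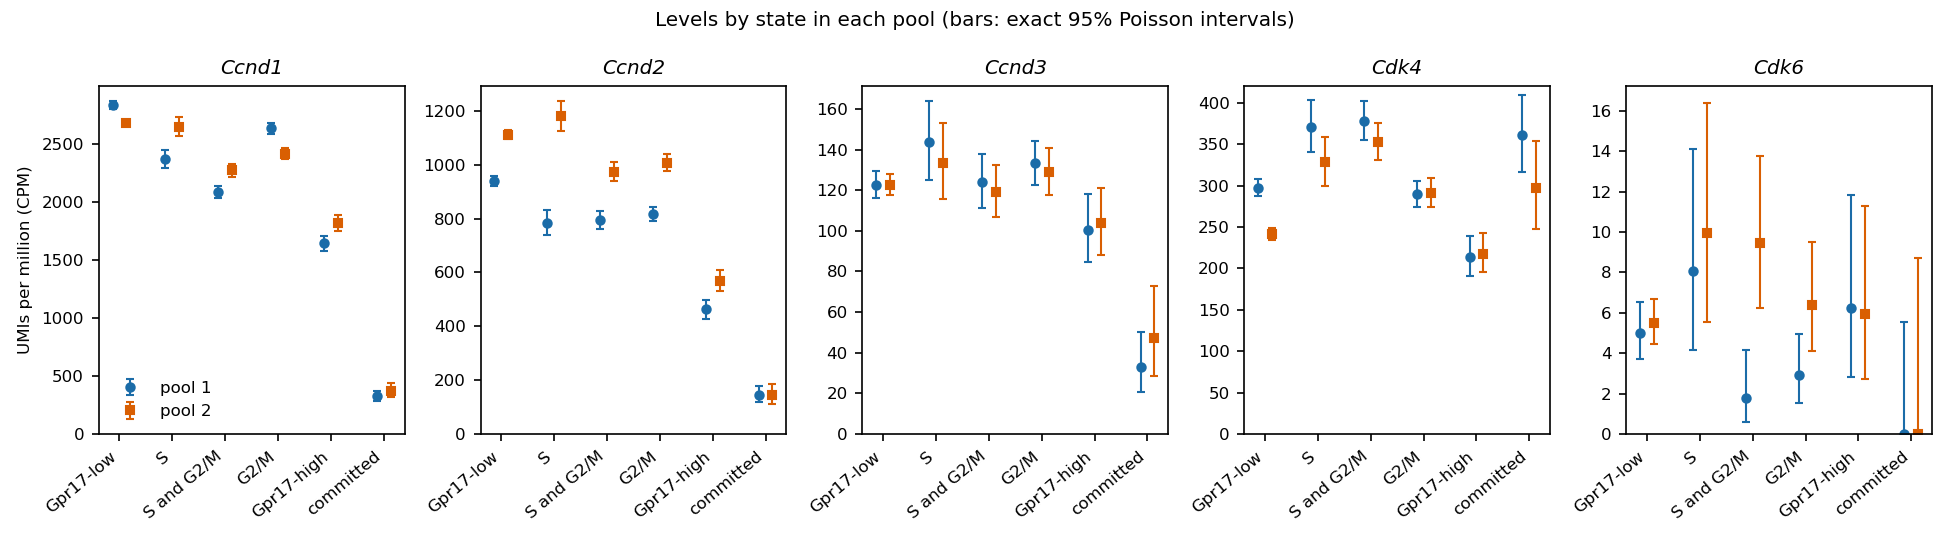
Levels of the 5 genes (y axis, CPM, linear from 0, a scale of its own for each gene) in 6 cell states (x axis) for pool 1 (circles) and pool 2 (squares), with exact 95% Poisson intervals that cover counting error only. Ccnd1 lies between 2084 and 2836 CPM in Gpr17-low and all cycling states, and at 324 and 375 CPM in committed cells.

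Levels of the D-type cyclins differed little between Gpr17-low cells and cells called S phase or G2/M. The calls used S-phase and G2/M genes only, so non-cycling cells can include dividing cells before S phase as well as resting cells. Ccnd1, the main cyclin of this family here, was at 2836 and 2678 CPM in Gpr17-low cells, at 2370 and 2648 CPM in S phase and at 2634 and 2415 CPM in G2/M. In cells with both gene sets it was at 2084 and 2270 CPM. Those values lay below Gpr17-low cells in both pools, with counting intervals apart, and were not tested. Gpr17-low cells had no Gpr17 UMI, while cycling cells were taken at any number. Non-cycling precursors with 1 Gpr17 UMI had 2325 and 2336 CPM of Ccnd1 and 708 and 835 CPM of Ccnd2. The part of this choice in the small differences of cycling cells was not tested. The S-phase level was lower in pool 1 and near the reference in pool 2, and the difference was −0.16 ± 0.09 on the log2 scale (SE, edgeR quasi-likelihood test, 95% interval −0.35 to 0.02, adjusted p = 0.3754). For G2/M it was −0.11 ± 0.09 (edgeR, interval −0.29 to 0.07, adjusted p = 0.4275). Neither interval reaches below −0.35, so a fall of the size seen in committed cells lies outside both.

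Ccnd2 was at 939 and 1112 CPM in Gpr17-low cells, 785 and 1180 CPM in S phase and 816 and 1007 CPM in G2/M. In cells with both gene sets it was at 794 and 974 CPM, lower than in Gpr17-low cells in both pools and not tested. In pool 1 it was lower in S phase and G2/M, and in pool 2 higher in S phase and lower in G2/M. The differences were −0.12 ± 0.10 in S phase and −0.14 ± 0.09 in G2/M (log2, SE, intervals −0.31 to 0.08 and −0.32 to 0.05). Ccnd3 was at 123 CPM in both pools in Gpr17-low cells, 143 and 133 CPM in S phase and 133 and 129 CPM in G2/M. In cells with both gene sets it was at 124 and 119 CPM. Its differences in S phase and G2/M of 0.15 ± 0.13 and 0.14 ± 0.11 (log2, SE, intervals −0.12 to 0.42 and −0.08 to 0.36) did not pass the test.

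Cdk4, the kinase with far more transcripts here, was the only member called in S phase. It stood at 297 and 242 CPM in Gpr17-low cells, 370 and 328 CPM in S phase, 378 and 352 CPM in cells with both gene sets and 290 and 291 CPM in G2/M. S-phase cells lay above Gpr17-low cells in both pools, by 0.36 ± 0.11 (log2, SE, edgeR, adjusted p = 0.0365). This call was lost in 8 of 18 alternative settings, among them DESeq2 (adjusted p = 0.1878), and the difference was 0.03 ± 0.14 (adjusted p = 0.9675) where S-phase and Gpr17-low cells were compared within the same clusters. Cdk6 had 12 and 15 UMIs in S phase and 13 and 24 in G2/M, too few to show a difference at this depth (S phase 0.85 ± 0.55 and G2/M −0.06 ± 0.47, log2, SE).

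So 1 of the 5 members passed the test in S phase, where 6.96% of 10150 genes tested did (5.46% higher and 1.5% lower). In G2/M none of the 5 passed in edgeR, with 0 at an unadjusted p under 0.05 and 0 in DESeq2, while 23.3% of all genes tested passed (13.1% higher and 10.2% lower). Directly between S phase and G2/M none of the 5 passed either (edgeR, 0 at an unadjusted p under 0.05, 0 in DESeq2), against 7.63% of genes (3.07% higher and 4.55% lower). The differences there ran from −0.05 ± 0.09 for Ccnd1 to 0.91 ± 0.62 for Cdk6 (log2, SE).

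The genes that act after the D-type cyclins changed with the phase in these same cells. Of 8 later cyclins and kinases, 6 rose in S phase and 8 rose in G2/M, where 5.46% and 13.1% of all genes tested did. Ccne2, an E-type cyclin that drives entry into S phase, rose from 4.69 and 3.56 CPM to 47.2 and 45.8 CPM in S phase (log2 3.39 ± 0.31, SE, edgeR adjusted p = 1.14e-13). Ccnb1, the mitotic B-type cyclin, rose from 2.40 and 1.72 CPM to 481 and 385 CPM in G2/M (log2 8.26 ± 0.22, adjusted p = 1.01e-39). Of 13 RB and E2F genes, 7 rose in S phase and 8 in G2/M, with none lower. E2f1, an activator released from RB, rose in S phase from 1.05 and 0.834 CPM to 34.4 and 41.1 CPM (log2 5.53 ± 0.49, adjusted p = 3.34e-14). The median log2 difference over all genes tested was −0.009 in S phase and −0.015 in G2/M, against 2.655 and 3.865 for the later cyclins and kinases and 0.84 and 1.12 for the RB and E2F genes. The phases were called from other cycle genes of these same cells, so these rises check the calls and are no separate finding.

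CDK inhibitors, which bind the cyclin-kinase pairs or the kinases alone, did not move as a block. In S phase 3 of 7 fell and 1 rose, where 1.5% and 5.46% of all genes tested did: Cdkn2b, an inhibitor of CDK4 and CDK6, went from 81.0 and 107 CPM to 24.3 and 27.9 CPM (log2 −1.62 ± 0.22, adjusted p = 5.16e-08). In G2/M 2 rose and 1 fell, where 13.1% and 10.2% of all genes tested did. Cdkn2c and Cdkn2d, inhibitors of the same kinases, rose there by 2.68 ± 0.12 and 2.11 ± 0.12 (log2, SE, edgeR adjusted p = 3.19e-27 and 6.40e-23), to 262 and 230 CPM and to 188 and 155 CPM. Levels of Cdkn2c in S phase were 43.8 and 41.8 CPM, close to those of Gpr17-low cells (34.6 and 40.3 CPM). Of 9 ERK output genes tested, 3 fell in S phase and 3 in G2/M, where 1.5% and 10.2% of all genes tested did. Among them was Dusp6, a phosphatase that switches ERK off, at −0.70 ± 0.15 and −0.45 ± 0.12 (log2, SE). Of 4 MYC genes and 8 genes of D-type cyclin turnover and kinase activation none passed in either phase (edgeR), with 1 and 2 in S phase and 0 and 0 in G2/M at an unadjusted p under 0.05 and none in DESeq2.

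**Figure D2:**
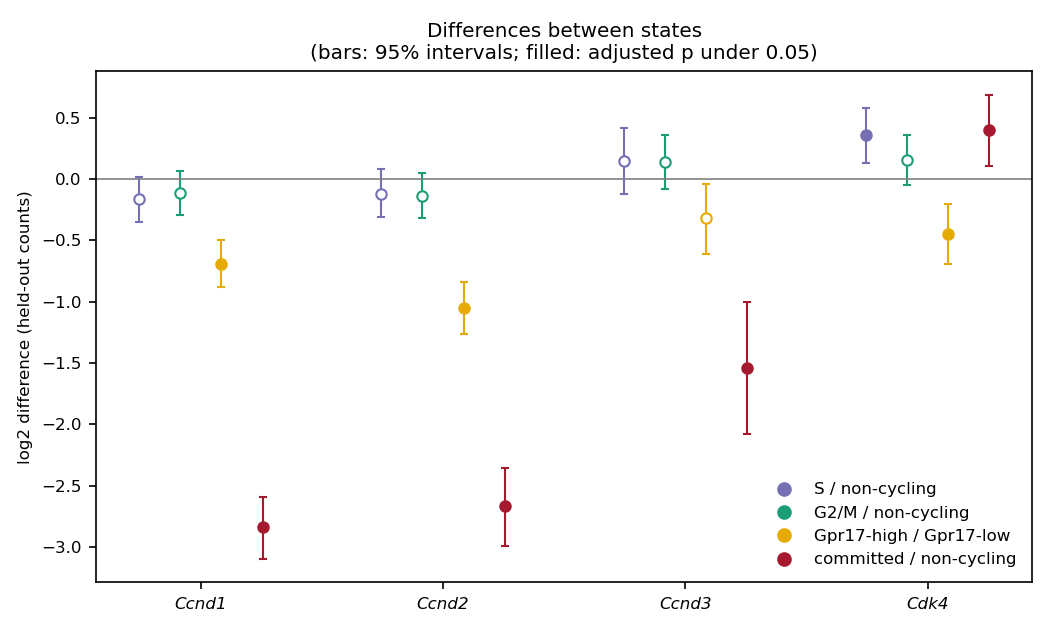
Differences between states on the log2 scale (y axis) for the 4 genes with enough counts (x axis), as fitted values with 95% intervals from edgeR on held-out counts of both pools, each against Gpr17-low cells (non-cycling in the legend). Filled points passed an adjusted p of 0.05 and open points did not: for the 3 cyclins the committed cells lie lowest, and for Cdk4 they lie at 0.40.

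Non-cycling precursors with Gpr17 UMIs carried less Ccnd1 and Ccnd2. Ccnd1 was at 1642 and 1815 CPM in Gpr17-high cells, below every other state but the committed one in both pools, and fell by 0.69 ± 0.09 against Gpr17-low cells (log2, SE, edgeR, adjusted p = 3.09e-07). The call was lost in 1 of 17 alternative settings, the looser naming rule described below with a finer clustering (−0.47, adjusted p = 0.05553). Ccnd2 was at 463 and 569 CPM and fell by 1.05 ± 0.10 (adjusted p = 4.01e-11), a 2.07-fold difference. The pools did not overlap between the 2 states for either gene, and how many of all genes do the same was not counted. Ccnd3 was at 100 and 104 CPM, with a difference of −0.32 ± 0.14 that did not pass (adjusted p = 0.1869).

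Cdk4 was at 214 and 218 CPM in Gpr17-high cells and passed the test with −0.45 ± 0.12 (log2, SE, edgeR, adjusted p = 0.01318). The difference was −0.58 in pool 1 and −0.20 in pool 2. This call was lost in 7 of 17 alternative settings, among them DESeq2 (adjusted p = 0.09657) and a stricter cell filter (−0.25, adjusted p = 0.2845). Cdk6 had 9 UMIs in each pool. In all, 3 of the 5 members passed, each of them lower, where 7.4% of genes tested passed, 4.07% as lower and 3.33% as higher. Gpr17-high cells had fewer UMIs than Gpr17-low cells (median 8441 against 11318 in pool 1 and 11057 against 13608 in pool 2), more mitochondrial UMIs (3.2% against 2.37% and 1.45% against 1.21%) and more Malat1 (58010 against 42320 CPM and 46460 against 40480 CPM). Without the clusters rich in Malat1, a setting added after the data were seen, Ccnd1 and Ccnd2 differed by −0.71 and −1.05 and Cdk4 by −0.41.

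Ccnd1 stepped down with the number of Gpr17 UMIs. Non-cycling precursors with 0, 1, 2, 3 and at least 4 Gpr17 UMIs of 2000 had 2836, 2325, 1779, 1516 and 1375 CPM of Ccnd1 in pool 1. In pool 2 the same classes had 2678, 2336, 2032, 1459 and 1250 CPM. Each class lay below the one before in both pools, although the last classes, of 33 and 30 cells in pool 1 and 21 and 22 cells in pool 2, overlapped in their counting intervals. Ccnd2 went from 939 CPM over 708, 545 and 418 to 276 CPM in pool 1, and from 1112 CPM over 835, 651 and 398 to 382 CPM in pool 2. Cdk4 went down over a smaller range and not to the end: it was at 297, 265, 220, 192 and 220 CPM in pool 1 and at 242, 232, 217, 204 and 233 CPM in pool 2, where all 5 classes overlapped in their intervals. These steps are a description, as the tests compare the first class with all cells of at least 2 Gpr17 UMIs.

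**Figure D3:**
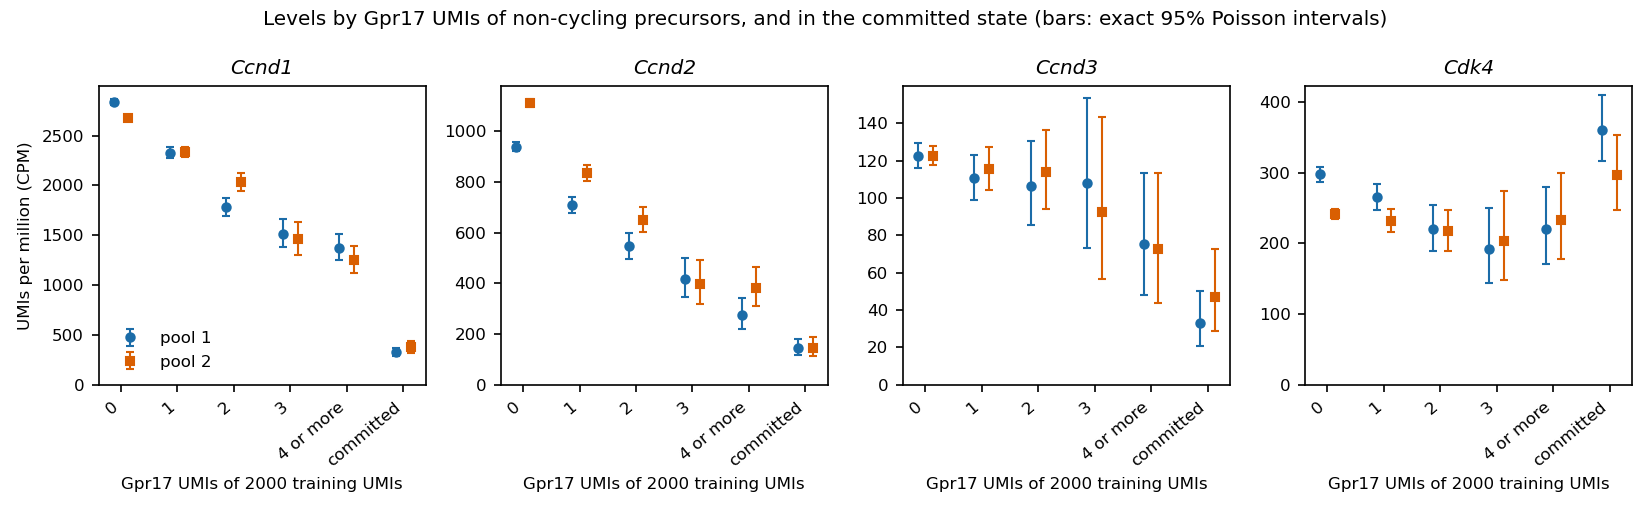
Levels of 4 members (y axis, CPM, linear from 0) in non-cycling precursors by the number of Gpr17 UMIs among 2000 training UMIs, with the committed cells last (x axis), for pool 1 (circles) and pool 2 (squares) with exact 95% Poisson intervals. Ccnd1 and Ccnd2 step down along the classes, while Cdk4 ends at 361 and 297 CPM in committed cells.

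In committed precursor-like cells all 3 D-type cyclins were lower. Ccnd1 was at 324 and 375 CPM, while Gpr17-low cells had 2836 and 2678 CPM. It fell by 2.84 ± 0.13 on the log2 scale, or 7.17-fold (SE, edgeR, adjusted p = 2.02e-27). Ccnd2 was at 146 CPM in both pools against 939 and 1112 CPM and fell by 2.67 ± 0.16, or 6.38-fold (adjusted p = 3.65e-22). Both pools of committed cells lay far below every other state for these genes. Ccnd3, the least abundant of the cyclins, was at 33.2 and 47.1 CPM against 123 CPM, from 22 and 20 UMIs. It fell by 1.54 ± 0.27, or 2.91-fold (edgeR, 95% interval −2.08 to −1, adjusted p = 5.78e-06), by 1.93 in pool 1 and 1.15 in pool 2.

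How far they fell depended on how committed cells were picked. A gate on UMIs of at least 2 of Bmp4, Neu4 and Enpp6, which took 27 and 13 cells, gave −3.96 for Ccnd1, −3.42 for Ccnd2 and −1.99 for Ccnd3, all called. A looser naming rule, by which 3 markers alone named a cluster, was added after the data were seen and applied to a second random division of the counts and to a finer clustering. It also took in a large cluster led by Neu4 and Gpr17, and gave −1.14 and −1.05 for Ccnd1, −1.44 and −1.42 for Ccnd2 and −0.41 and −0.31 for Ccnd3 (adjusted p = 0.04001 and 0.1204 for Ccnd3). Calls made at 1000 training UMIs gave −1.07 for Ccnd3, still past the test.

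Cdk4 did not go with its cyclins. It was at 361 and 297 CPM in committed cells against 297 and 242 CPM in Gpr17-low cells, higher in both pools, with a difference of 0.40 ± 0.14 (log2, SE, edgeR, interval 0.11 to 0.69, adjusted p = 0.03383). The call was lost in 9 of 17 alternative settings, among them DESeq2 (adjusted p = 0.08155), and the sign turned with the looser naming rule (−0.12 and −0.07). A fall of Cdk4 like those of the cyclins lies outside the interval. Cdk6 had no UMI among 1087155 UMIs of committed cells. A floor of 3 counts over the group is 2.76 CPM, against 5.31 CPM in Gpr17-low cells. By pool, the upper limits of the exact Poisson intervals in committed cells were 5.56 and 8.70 CPM. Gpr17-low cells had 4.98 and 5.50 CPM, so no fall of Cdk6 was shown, and the test did not pass (edgeR adjusted p = 0.1705).

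In all, 4 of the 5 members passed the test in committed cells, 3 lower and 1 higher, where 22.2% of genes tested passed, 11.5% lower and 10.7% higher. DESeq2 called the 3 cyclins and not Cdk4. Committed cells had more UMIs than Gpr17-low cells (median 13940 against 11318 and 15993 against 13608), with 2.03% against 2.37% and 1.5% against 1.21% mitochondrial UMIs and 46620 against 42320 and 50650 against 40480 CPM of Malat1. Without the clusters rich in Malat1 the 3 cyclins differed by −2.88, −2.72 and −1.59, and Cdk4 by 0.32 (adjusted p = 0.08551).

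Set directly against Gpr17-high precursors, a comparison added after the data were seen, committed cells again had lower cyclins. Ccnd1 was lower by 2.15 ± 0.13 and Ccnd2 by 1.62 ± 0.17 on the log2 scale (SE, edgeR adjusted p = 1.19e-20 and 2.02e-11). With the looser naming rule the falls were 0.57 and 0.58 for Ccnd1, and 0.43 (adjusted p = 0.1953) and 0.68 for Ccnd2. Ccnd3 was lower by 1.22 ± 0.30 (adjusted p = 0.00167), a call lost at 1000 training UMIs (adjusted p = 0.1428) and with at least 3 Gpr17 UMIs (adjusted p = 0.1163), and opposite in sign with the looser naming rule (0.16 and 0.11). Cdk4 was higher by 0.85 ± 0.16, or 1.80-fold (adjusted p = 4.73e-05), by 0.93 in pool 1 and 0.39 in pool 2, and the call was lost only with the looser naming rule among 17 alternative settings. Here too 4 of 5 members passed, against 20.3% of genes tested (10.2% higher and 10% lower).

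The ratio of cyclin to kinase transcripts was lowest in committed cells. There were 13.1 and 16.2 D-type cyclin UMIs for each Cdk4 UMI in Gpr17-low cells, 10.3 and 11.4 in Gpr17-high cells, 8.90 and 12.1 in S phase, 7.94 and 9.54 in cells with both gene sets and 12.4 and 12.2 in G2/M. Committed cells had 1.40 and 1.91, from 334 and 241 cyclin UMIs and 239 and 126 Cdk4 UMIs. Both committed values lay below every other state. Within the cyclins the proportions changed less: Ccnd1 held 64.4% (exact Clopper-Pearson interval 59.0 to 69.5%) and 66.0% (59.6 to 71.9%) of cyclin UMIs in committed cells, against 72.8% and 68.4% in Gpr17-low cells.

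The same pattern showed in the number of cells with a UMI when each cell was thinned to 2000 held-out UMIs. Ccnd1 was seen in 97.6% of 842 Gpr17-low cells in pool 1 and 97.5% of 1207 in pool 2, and Ccnd2 in 73.6% and 77.9%. In Gpr17-high cells the shares were 84.7% and 88% for Ccnd1 and 47.3% and 56.4% for Ccnd2. In committed cells 9 of 43 and 6 of 26 had Ccnd1 (20.9% and 23.1%, exact intervals 10 to 36% for the first and 8.97 to 43.6% for the second), and 7 of 43 and 5 of 26 had Ccnd2. Cells without any D-type cyclin UMI at this depth made up 0.95% and 0.911% of Gpr17-low cells, 8.67% and 10.3% of Gpr17-high cells and 62.8% and 57.7% of committed cells. Cdk4 was seen in 55.8% and 26.9% of committed cells, against 42.9% and 35.1% of Gpr17-low cells, so the order of these states differed between the pools. Without thinning, 95.3% and 100% of committed cells and 85.9% and 87.4% of Gpr17-low cells had Cdk4, and 48.8% and 65.4% against 99.9% and 100% had Ccnd1.

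Free RNA can place UMIs in cells that do not express a gene. In the 3 and 8 cells of the microglia-like cluster, with a median of 9101 and 7178 UMIs, 1 of 3 and 4 of 8 had a Ccnd1 UMI after thinning, and the level of Ccnd1 was 204 CPM (exact Poisson interval 81.9 to 420 CPM) and 268 CPM (171 to 398 CPM). The exact intervals of these shares, 0.84 to 90.6% and 15.7 to 84.3%, are too wide to set the committed share against them. The level was higher in committed cells in both pools (324 and 375 CPM), with overlapping counting intervals. Whether microglia-like cells make Ccnd1 of their own was not tested. How much of the Ccnd1 left in committed cells is background therefore cannot be told here. Ccnd2 was at 0 and 11.1 CPM in the microglia-like cells (0 and 1 UMI). Committed cells had 146 CPM in both pools (97 and 62 UMIs). The upper limits in microglia-like cells, 107 and 62.1 CPM, lay below the lower limits in committed cells, 119 and 112 CPM. The cluster named mature oligodendrocyte (4 and 20 cells) had 75.7 and 112 CPM of Ccnd2 and 454 and 342 CPM of Ccnd1. Its intervals overlapped those of committed cells. Whether its cells make either cyclin was not tested.

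Most Gpr17-low cells had UMIs of both Ccnd1 and Ccnd2, which follows largely from Ccnd1 being seen in 97.6% and 97.5% of them. Of Gpr17-low cells, 72.6% and 76.6% had UMIs of both, 25.1% and 20.9% of Ccnd1 without Ccnd2, and 1.07% and 1.24% of Ccnd2 without Ccnd1. Among cells with Ccnd1, 74.3% of 822 and 78.6% of 1177 also had Ccnd2, and among cells without Ccnd1 9 of 20 and 15 of 30 did. In Gpr17-high cells 42% and 32.5% had Ccnd1 without Ccnd2. A cell without a UMI at this depth may still hold the transcript.

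Few cells of the committed cluster were called cycling. Among its cells with enough UMIs for a call, 2 of 51 (3.92%, exact Clopper-Pearson interval 0.478 to 13.5%) in pool 1 and 1 of 35 (2.86%, 0.0723 to 14.9%) in pool 2 were cycling, against 23.1% of 2267 and 16.3% of 2349 other glial cells. Other cycle genes were not kept out of the clustering, and clusters 8 and 10 were led by such genes, among them Mcm3 and Cenpa. A cycling committed cell could be placed there, so these shares do not show how often committed cells divide. Taken with its cycling cells and those left between the calls, the cluster had 406 and 508 CPM of Ccnd1 and 342 and 299 CPM of Cdk4, between the values of its non-cycling cells and those of the other states for Ccnd1.

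Clusters were compared where each pool gave 20 or more cells, which 12 did. Among these 12 the committed cluster was lowest for all 3 cyclins in both pools. The cluster named mature oligodendrocyte, with 4 and 20 cells, was left out by this rule. It had 454 and 342 CPM of Ccnd1, 75.7 and 112 CPM of Ccnd2 and 43.3 and 32.4 CPM of Ccnd3. The committed cluster had 406 and 508, 170 and 260, and 42.0 and 59.1 CPM. Low D-type cyclins were therefore not particular to the committed cluster. Ccnd1 was highest in cluster 6, which was led by Vgf and Hmga2, at 3305 and 2874 CPM, 8.15 and 5.66 times the committed cluster. Next above the committed cluster came cluster 4, led by Neu4, with 1579 CPM in pool 1, and cluster 7 with 1756 CPM in pool 2. The order between these ends differed between the pools: cluster 9, led by haemoglobin genes, was second highest in pool 1 (3031 CPM), and cluster 3 in pool 2 (2733 CPM). Ccnd2 was highest in cluster 6 in pool 1 (1061 CPM) and in cluster 5, led by Hspa1a and Fos, in pool 2 (1244 CPM). Ccnd3 ranged only from 42.0 to 142 CPM and from 59.1 to 132 CPM, and most neighbours overlapped in their intervals.

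Cdk4 had another order. It was lowest in clusters 0 and 7, at 85.9 and 93.4 CPM in pool 1 and 89.8 and 119 CPM in pool 2, while Ccnd1 there was at 2478 and 2157 CPM and at 2213 and 1756 CPM. These 2 clusters were rich in Malat1 (92600 to 114200 CPM against 46120 and 51240 CPM in the committed cluster) and had few UMIs (median 1790 to 4322). The part of this in the low Cdk4 level was not tested. Among the other clusters Cdk4 was highest in pool 1 in cluster 1 (431 CPM) and cluster 11, led by histone genes (399 CPM), and in pool 2 in clusters 8 and 11 (345 CPM in both), cluster 8 being led by S-phase genes such as Ung. Cluster 1 was led by microglial genes but held Olig2 at 634 and 410 CPM and Ccnd1 at 2344 and 1937 CPM, so it is given here by its number. All 8 microglial markers were at least 2-fold above the other cells in it, and its cells were counted as not glial and left out of the states. Cdk6 stayed at or under 17.8 CPM in every cluster of this size, with 0 UMIs in cluster 12 in pool 1 and cluster 1 in pool 2.

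**Figure D4:**
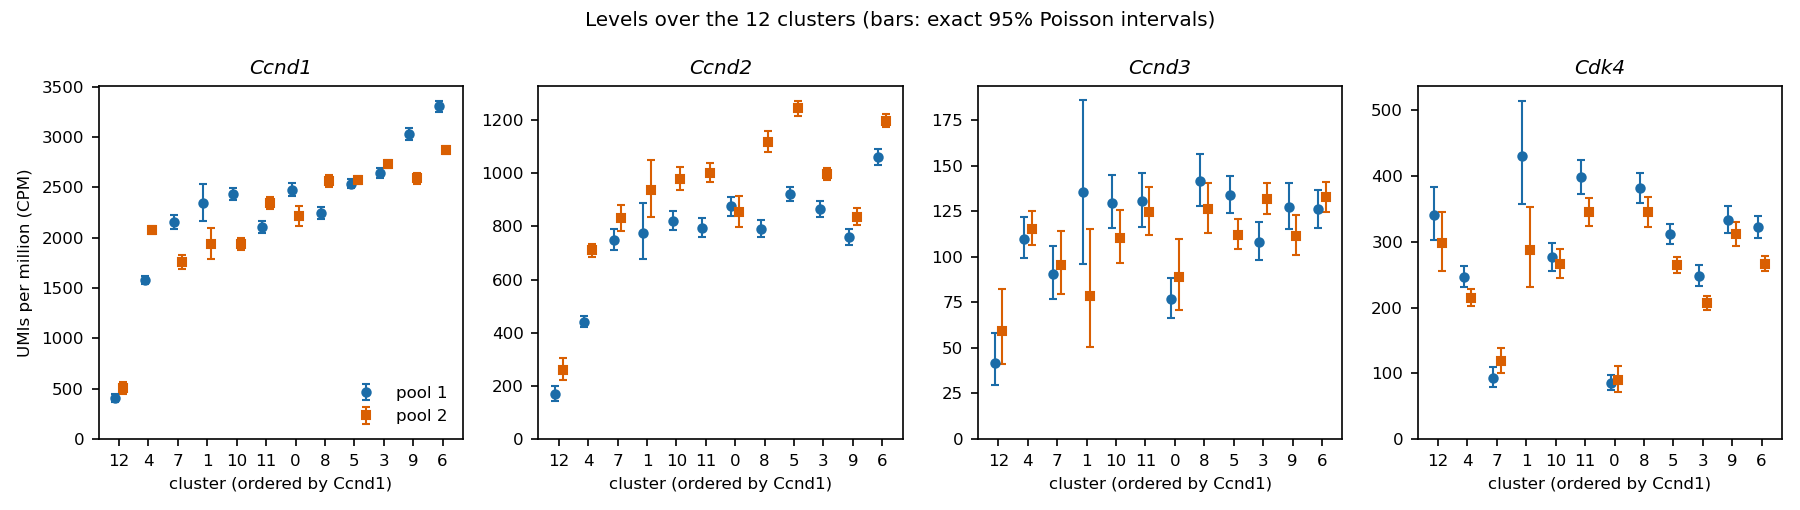
Levels of 4 members (y axis, CPM, linear from 0) over 12 clusters, ordered by the mean of Ccnd1 (x axis, cluster number), for pool 1 (circles) and pool 2 (squares) with exact 95% Poisson intervals. The committed cluster 12 lies lowest for the 3 cyclins, and clusters 0 and 7 lie lowest for Cdk4.

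Over these 12 clusters the log2 levels of Ccnd1 and Ccnd2 went together, with Pearson's r = 0.963 in pool 1 and 0.928 in pool 2, and those of Ccnd1 and Ccnd3 with 0.823 and 0.836. Ccnd1 and Cdk4 gave −0.143 and 0.0142. The clusters of a pool share its library, and the committed cluster lies far from the rest, so these are descriptions with no test. Spearman's rho, which gives that cluster less weight, was 0.762 and 0.587 for Ccnd1 and Ccnd2. For Cdk4 the Malat1-rich clusters 0 and 7 lie far below the rest. The third lowest cluster had 247 CPM in pool 1 and 208 CPM in pool 2. Correlations of Cdk4, here and below, were not computed without clusters 0 and 7.

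By the same measure, the lower of the pools' r among 7125 genes, the genes most like Ccnd1 were Pea15a, an adaptor that binds ERK (0.946 and 0.949), Bmp7, a secreted growth factor (0.953 and 0.946), and Lrrfip1 (0.940 and 0.964). For Ccnd2 they were Itga1, an integrin subunit (0.916 and 0.911), Pea15a (0.915 and 0.911) and Pmp22 (0.905 and 0.907). Ccnd3 was most like Ddah1, Basp1 and Pdlim7, with values of 0.902 to 0.952. Cdk4 was most like Ndufv1, a subunit of respiratory complex I (0.981 and 0.973), Ybx1, an RNA-binding protein (0.963 and 0.981), and Prmt1, an arginine methyltransferase (0.961 in both). For Cdk6 the likeness rested on few UMIs (Stard3, Inhbb and Csf2ra, 0.752 to 0.861). By Spearman's rho in place of r, Lrrfip1 and Ndufv1 remained among the first 3 of their genes and the others did not.

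The pathway around the cyclins was read in the same committed cells, from gene lists chosen with earlier results of these data known. Of 9 ERK output genes tested, genes that ERK signalling switches on, all 9 were lower in committed cells, where 11.5% of all genes tested were. Their median was −2.52 on the log2 scale against −0.038 for all genes tested. Spry4, a feedback inhibitor of receptor signalling, went from 167 and 213 CPM in Gpr17-low cells to 22.6 and 23.6 CPM (log2 −2.77 ± 0.29, SE, edgeR adjusted p = 4.23e-12). Phlda1 went from 479 and 456 CPM to 93.5 and 75.4 CPM (log2 −2.13 ± 0.18, adjusted p = 1.66e-15), and Etv1, an ETS factor, and Spry1 fell by 2.32 ± 0.26 and 2.09 ± 0.24. In Gpr17-high cells 4 of the 9 were lower, where 4.07% of all genes tested were, with a median of −0.22 against 0.001, among them Phlda1 (−0.61 ± 0.11, adjusted p = 6.10e-05) and Dusp6 (−0.66 ± 0.15, adjusted p = 0.002192). Pdgfra, the receptor for PDGF and 1 of the precursor markers used to name clusters, was at 148 and 224 CPM in committed cells against 1137 and 1285 CPM in Gpr17-low cells, and at 1435 and 1520 CPM in Gpr17-high cells.

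Of 7 CDK inhibitors, 1 rose and 3 fell in committed cells, where 10.7% and 11.5% of all genes tested did. Cdkn1c, a broad inhibitor of cyclin-kinase pairs, went from 1.25 and 1.06 CPM to 107 and 61.3 CPM (log2 6.22 ± 0.49, SE, edgeR adjusted p = 1.09e-16). Cdkn2a and Cdkn2b, whose products include inhibitors of CDK4 and CDK6, fell by 2.64 ± 0.42 and 2.23 ± 0.38, and Cdkn1a by 1.96 ± 0.28. In Gpr17-high cells Cdkn2a, Cdkn2b and Cdkn1a were also called lower and Cdkn1c higher (4.07% and 3.33% of all genes tested), with Cdkn1c at 9.68 and 2.64 CPM from 14 and 4 UMIs. The 2 comparisons share their reference cells.

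Of 13 RB and E2F genes, 3 rose in committed cells and none fell, where 10.7% and 11.5% of all genes tested did. E2f8, a repressor of the family, went from 0.958 and 0.50 CPM to 24.1 and 23.6 CPM, from 16 and 10 UMIs (log2 5.38 ± 0.69, SE, edgeR adjusted p = 3.74e-09), and E2f3 and E2f5 rose by 1.25 ± 0.40 and 1.09 ± 0.37. Of 8 later cyclins and kinases, Ccnb1 alone passed. It was at 4.53 CPM in pool 1, from 3 UMIs, and at 87.2 CPM in pool 2, from 37 UMIs, so the call rests on pool 2. Of 4 MYC genes Mycl rose, from 4.50 and 5.45 CPM in Gpr17-low cells and 29.0 and 23.8 CPM in Gpr17-high cells to 264 and 259 CPM in committed cells (log2 5.99 ± 0.27 against Gpr17-low, adjusted p = 1.73e-27). None of the 8 genes of D-type cyclin turnover and kinase activation passed in committed cells (edgeR, 0 at an unadjusted p under 0.05, 0 in DESeq2), nor in Gpr17-high cells (edgeR, 1 at an unadjusted p under 0.05, 0 in DESeq2). Gsk3b, the kinase that marks cyclin D1 for degradation, was at 321 and 330 CPM in committed cells and 360 and 387 CPM in Gpr17-low cells (−0.17 ± 0.14, log2, SE).

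**Figure D5:**
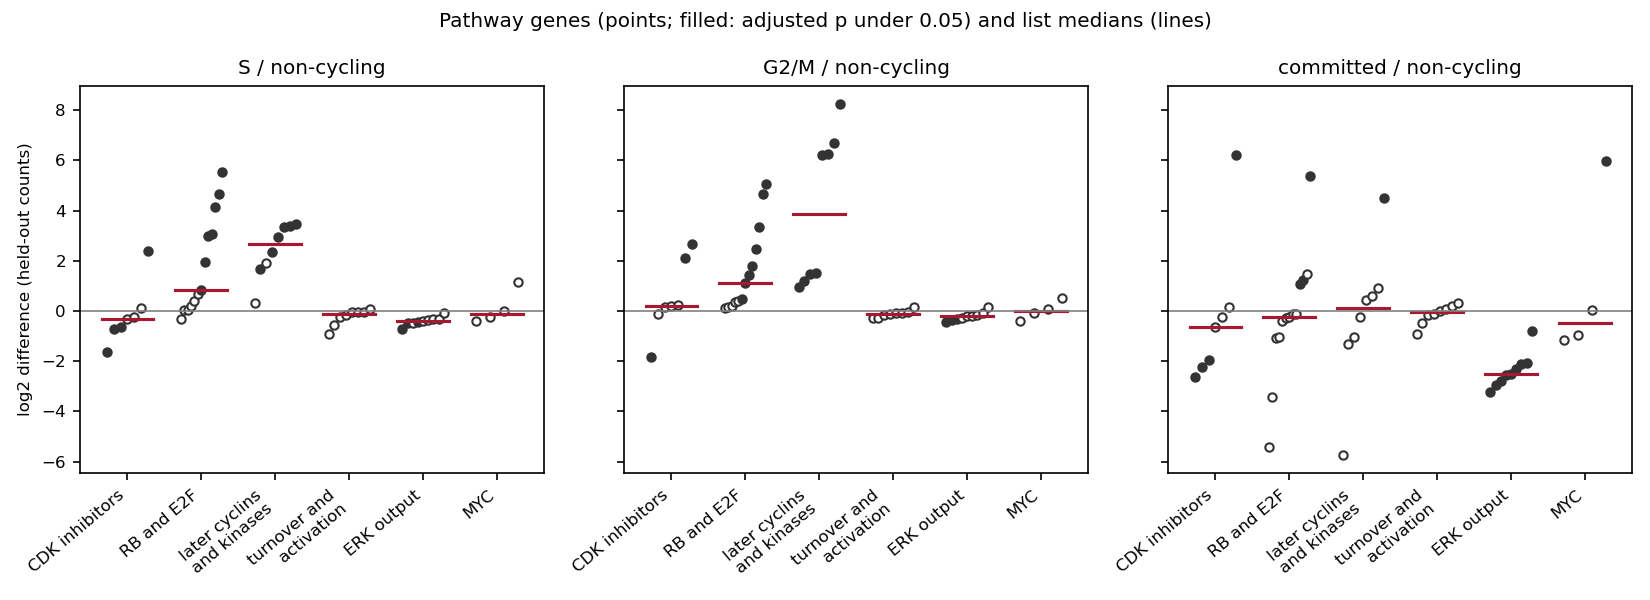
Log2 differences (y axis) of the genes of 6 pathway lists (x axis, each point 1 gene, lines the list medians) for S phase, G2/M and committed cells, each against Gpr17-low cells, with filled points past an adjusted p of 0.05 in edgeR. The ERK output median is −2.52 in committed cells and −0.40 in S phase, and later cyclins and kinases have medians of 2.655 in S phase and 3.865 in G2/M. Fitted values of genes with almost no UMIs in a state, such as Ccnb2 in committed cells, are no measure of size.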

How the data were processed

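Polyadenylated RNA of sorted cells was sequenced with a droplet 3′ kit that counts unique molecular identifiers (UMIs). The authors deposited raw UMI counts per gene and cell for each pool, made with Cell Ranger 6.0.2 and the GRCm38/mm10 build per the submitters' processing notes; the sources used here name neither strand use nor the gene annotation. The 5 genes and the pathway lists were chosen with earlier results of these data known.

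The cell filter (500 genes, 15% mitochondrial UMIs) kept 3506 of 3843 and 3278 of 3650 barcodes. Scrublet called 0 and 2 doublets against an expected 2.8% and 2.62%, so doublets were in effect not removed; leaving out the 98 and 86 cells of highest score was an alternative. Counts were divided binomially with a share of 0.5. Training counts gave 1000 variable genes, 30 principal components, 15 neighbours and Leiden clusters at resolution 0.8 (scanpy 1.11.5). A cluster was named where at least 3 markers, and not fewer than 50% of a list, were at least 2-fold above the other cells; the second condition was added after the data were seen and did not change the names used. Held-out counts summed by pool and state (12 libraries, at least 10 cells each, 5 residual degrees of freedom) were tested with edgeR 4.0.16 (TMM, filterByExpr, quasi-likelihood F test, pool as a term). Of 10732 genes fitted, 582 that had been used for clusters or calls were left out and 10150 tested, with Benjamini-Hochberg adjustment and a threshold of 0.05. The edgeR steps were tested on simulated data. DESeq2 1.42.0 was an alternative. CPM values use all UMIs of the cells of a state. Intervals are exact at the 95% level and cover counting error only. Genes were named by a fixed rule: the 5 members, up to 4 genes per pathway list and comparison with the smallest p, and the 3 genes most like each member; Cdkn2c in S phase, Pdgfra, Mbp, Mag, Cldn11 and Ermn, outside it, were named after their values were seen. Promoter sequences are from a RefSeq table (GRCm38.p6), which had entries for Ccnd3, Cdk4 and Cdk6. The summed level of the mature oligodendrocyte markers is not reported here.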

Additional observations from a re-analysis of the deposited data

How the results depend on the processing

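Of 498 alternative values of the 30 member results, 462 kept their side of the threshold and, where called, their direction; 29 lost a call, 3 gained one and 4 turned sign; 21 uncalled values had the opposite sign. The falls of Ccnd1 and Ccnd2 in committed cells against Gpr17-low cells were called in 17 of 17 settings. The looser naming rule on a second division of the counts and at resolution 1.2, which puts other cells in the state, gave for Cdk4 in committed cells −0.12 and −0.07, for committed against Gpr17-high cells 0.16 and 0.11 for Ccnd3 and 0.30 and 0.51 for Cdk4, on the second division −0.43 for Ccnd2, and at resolution 1.2 −0.31 for Ccnd3 in committed cells and −0.47 for Ccnd1 in Gpr17-high cells, both calls lost. The causes of all other changes were not tested. Cdk4 in S phase lost its call with DESeq2 (0.36), no low-count filter (0.31), no pool term (0.35), the marker gate (0.35), at least 3 Gpr17 UMIs (0.35), the looser rule (0.39 and 0.34) and within clusters (0.03), and in G2/M gained one at 1000 training UMIs (0.26). Cdk4 in committed cells lost its call with DESeq2 (0.41), no filter (0.34), no pool term (0.40), the stricter cell filter of 1000 genes and 10% mitochondrial UMIs (0.37), 1000 training UMIs (0.35), the gate (0.38) and without the clusters rich in Malat1 (0.32). In Gpr17-high cells it did so with DESeq2 (−0.44), no pool term (−0.46), the stricter filter (−0.25), without the cells of highest doublet score (−0.36), the gate (−0.33), at least 3 Gpr17 UMIs (−0.31) and the looser rule on the second division (−0.42). Ccnd3 in committed against Gpr17-high cells lost it at 1000 UMIs (−0.68) and at least 3 Gpr17 UMIs (−0.84). With all counts in place of the held-out part Cdk6 in committed cells passed against both precursor states (−7.37 and −7.53), fitted values against a group at 0 UMIs that give no size. Genes called in S phase (706) were 416 with no pool term and 32 within clusters, a fit on the cells of 3 clusters (2 for G2/M) in which 4781 genes were tested (4528 for G2/M) in place of 10150. In G2/M (2366) they were 1250 with DESeq2, 1194 with no pool term and 138 within clusters, and for S phase against G2/M (774) 452, 388, 1219 with all counts and 0 within the 1 cluster with enough cells, where 1 residual degree of freedom was left. In committed cells (2249) they were 1388 and 1302 with the looser rule, in Gpr17-high cells (751) 362 with DESeq2, 146 with no pool term and 116 and 176 with the looser rule, and in committed against Gpr17-high cells (2059) 3124 with all counts and 193 and 200 with the looser rule. Each pool alone is a value with no test. In committed cells Ccnd1 ranged from −3.04 to −2.80, Ccnd2 from −2.90 to −2.66, Cdk4 from 0.19 to 0.35 and Cdk6 from −1.95 to −1.22. Against Gpr17-high cells these ranges were −2.30 to −2.26, −1.98 to −1.59, 0.39 to 0.93 and −2.57 to −0.97. In Gpr17-high cells Ccnd2 ranged from −1.06 to −0.93 and Ccnd3 from −0.33 to −0.20. In G2/M Ccnd1 ranged from −0.15 to −0.12, Ccnd2 from −0.21 to −0.12 and Ccnd3 from 0.10 to 0.12, and for S phase against G2/M Ccnd3 from −0.01 to 0.11 and Cdk6 from 0.81 to 1.21. The states of a pool share its library, and the pool was a term of the fit except where no pool term is named. Depth limits Cdk6 in every state, Ccnd3 in committed cells and shares of cells with a UMI.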
